A study of Mus musculus with 15 samples.

Results

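The class I antigen presentation genes described here are 9 genes of the mouse genome, chosen by name: the heavy chain genes H2-D1, H2-K1 and H2-T23, the light chain gene B2m, the peptide transporter genes Tap1 and Tap2, the transporter's chaperone gene Tapbp, and the immunoproteasome genes Psmb8 and Psmb9. All 9 were among the 24420 gene symbols of the count table, and all 9 passed the filter on low counts that left 16808 genes for testing. RNA was sequenced from the cerebellum of 3 groups of mice with 5 libraries each. Wild type mice (WT) were of strain FVB/nJ and 9 weeks old. Mice with the genotype Atxn1[82Q] (82Q), an Atxn1 with an expanded polyglutamine stretch and a model of the Purkinje cell disease spinocerebellar ataxia, were also FVB/nJ and 9 weeks old. Mice with the genotype Atxn1[82Q],CalphaLoxM120A (82Q_M120A) carried in addition an altered form of Calpha, the catalytic subunit of protein kinase A that Prkaca encodes. They were 8 weeks old, on a background that mixes the C57BL/6J and FVB/nJ strains. The title of the series concerns whether less phosphorylation of ATXN1 by protein kinase A delays ataxia. Which promoter drives the Atxn1[82Q] allele and in which cells the kinase allele was active is not stated in the labels. Since strain, age and the kinase allele change together between 82Q_M120A and the other groups, their effects cannot be told apart.

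Class I molecules carry peptides from inside the cell to its surface, where T cells and natural killer cells read them. Proteasomes cut the peptides, the Tap1 and Tap2 proteins pump them into the endoplasmic reticulum, tapasin (Tapbp) holds an empty heavy chain at the transporter, and beta-2 microglobulin (B2m) completes the molecule. Psmb8 and Psmb9 encode subunits that replace constitutive ones in the immunoproteasome, and interferons induce most genes of the pathway. Neurons also make class I molecules, and H2-D1 and H2-K1 have been described in Purkinje cells, where they influence synaptic plasticity. All of the genes but one lie in the H2 complex on chromosome 17, the most polymorphic region of the mouse genome, where laboratory strains differ by haplotype: C57BL/6J carries haplotype b and FVB mice haplotype q. B2m lies on chromosome 2.

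The promoters of the heavy chain genes and of B2m are shown because the results turn on these 4 genes, and because they moved in different directions. RefSeq's table for GRCm38.p6, which is C57BL/6J sequence, had an entry for 8 of the 9 genes, all but Tap2. Each run is the 250 bases before a transcription start, 5′ to 3′ on the gene's own strand. Capitals mark the matches to 4 motifs searched on both strands: the kappaB element GGGATTCCC, to which NF-kappaB proteins bind, the IRF element GAAANNGAA of interferon regulatory factors, the CCAAT box CCAAT of NF-Y, and the GAS element TTCNNNGAA, the gamma interferon activation site. Of 32851 promoter windows of this length in the table, 0.301% held the kappaB element, 7.13% the IRF element, 33.8% a CCAAT box and 7.02% a GAS element.
H2-D1 (chr17:35262844-35263093, plus strand): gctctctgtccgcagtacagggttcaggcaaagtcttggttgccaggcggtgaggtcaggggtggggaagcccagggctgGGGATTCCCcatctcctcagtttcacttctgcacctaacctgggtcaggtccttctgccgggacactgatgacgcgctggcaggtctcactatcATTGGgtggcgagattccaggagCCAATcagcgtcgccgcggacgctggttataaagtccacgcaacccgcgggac
H2-K1 (chr17:34000334-34000583, minus strand): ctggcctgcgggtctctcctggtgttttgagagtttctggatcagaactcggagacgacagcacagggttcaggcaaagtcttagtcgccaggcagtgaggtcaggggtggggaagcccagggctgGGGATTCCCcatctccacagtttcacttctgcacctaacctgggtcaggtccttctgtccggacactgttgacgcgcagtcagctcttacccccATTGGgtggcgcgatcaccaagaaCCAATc
H2-T23 (chr17:36032702-36032951, minus strand): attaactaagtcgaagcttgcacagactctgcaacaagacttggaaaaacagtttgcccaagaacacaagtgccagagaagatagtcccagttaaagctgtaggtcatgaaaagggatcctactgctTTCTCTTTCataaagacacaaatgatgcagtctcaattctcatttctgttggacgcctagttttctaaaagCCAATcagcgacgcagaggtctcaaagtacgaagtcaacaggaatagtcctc
B2m (chr2:122147437-122147686, plus strand): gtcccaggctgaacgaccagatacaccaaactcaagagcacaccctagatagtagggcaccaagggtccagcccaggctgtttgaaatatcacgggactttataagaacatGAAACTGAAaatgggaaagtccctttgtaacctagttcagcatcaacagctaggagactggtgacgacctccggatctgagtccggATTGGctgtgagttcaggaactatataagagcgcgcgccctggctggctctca
The H2-D1 and H2-K1 windows printed each held 1 kappaB element and 2 CCAAT boxes. Neither held an IRF element of these letters. Only these letters were searched, so a variant of a motif goes unmarked. RefSeq gives H2-K1 a second start (window chr17:34000348-34000597), before which the same kappaB element but 1 CCAAT box was found. For H2-D1 and H2-K1 the longest run of letters shared, 47 bases, holds the kappaB element. The H2-T23 and B2m windows each held 1 IRF element and 1 CCAAT box and no kappaB element of these letters. A match is a description of this reference window and not a measured binding site.

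Tap1 and Psmb9 are read away from each other, and the stretch shown lies between the starts that RefSeq's table gives them; the GENCODE models of the 2 genes reach further and overlap by 212 bases.
Tap1 and Psmb9 (chr17:34187331-34187555, plus strand): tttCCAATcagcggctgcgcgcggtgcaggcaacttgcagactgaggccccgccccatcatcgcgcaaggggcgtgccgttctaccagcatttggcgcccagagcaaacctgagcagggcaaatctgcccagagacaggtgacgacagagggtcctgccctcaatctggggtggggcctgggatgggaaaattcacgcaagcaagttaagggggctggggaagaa
These 225 bases held 1 CCAAT box and none of the other 3 motifs, the Psmb8 window held 1 GAS element, and the Tapbp window held 2 CCAAT boxes.

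Depth was 38.3 to 99.4 mega counts (M) per library, and values are CPM, in which edgeR's TMM factors bring all libraries to one scale. The libraries are named by group and by their place in the table, for example WT-5. A gene is called where its adjusted p is under 0.05 in edgeR's quasi-likelihood test with Benjamini-Hochberg adjustment over all 16808 genes, and every adjusted p below comes from that test unless another is named. Standard errors of log2 fold changes are approximate, from the test statistic. The sources used here do not say that the libraries of a group came from separate animals, so a p-value here rests on the spread among libraries, which may be technical. Atxn1 read 46.4 to 62.1 CPM over all libraries and was not called in any comparison. Gene counts do not separate alleles, so neither this nor Prkaca (164 to 173 CPM in WT, 158 to 173 in 82Q and 138 to 150.0 in 82Q_M120A) checks the genotypes. Purkinje cell marker genes, summed over 10 genes, reached 12319 to 13808 CPM in WT, 5073 to 5867 in 82Q and 5125 to 6473 in 82Q_M120A. Libraries 1, 2 and 4 of 82Q_M120A stood apart from libraries 3 and 5 at several genes of the H2 complex. Results of 82Q_M120A that they bear on are also given without those 3 libraries, a choice made after seeing the data. Only libraries 3 and 5 then remain in the group. At the genes that set the 3 libraries apart, a smaller difference without them follows from the choice itself.

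Compared per kilobase of exon, B2m was the most abundant of the 9 in WT at 61 ± 2.06 CPM per kb, followed by H2-D1 at 43.7 ± 1.5 (SD, n = 5). Tapbp followed at 8.33 ± 0.605, H2-K1 at 4.52 ± 0.319 and Tap2 at 2.65 ± 0.0991 CPM per kb. Psmb8 (0.532 ± 0.0891) and Tap1 (0.487 ± 0.0375) lay within their spread of each other at this scale, as did H2-T23 (0.289 ± 0.122) and Psmb9 (0.277 ± 0.0524). H2-D1 thus had the most counts per kb of the 3 heavy chain genes in WT. How many FVB/nJ reads of each heavy chain gene were lost or placed on a related gene is unknown. These counts therefore do not settle the order of the heavy chain mRNAs, or their place against B2m. In 82Q_M120A the mean of H2-T23, 1.97 ± 1.65 CPM per kb, lay above those of Psmb8, Tap1 and Psmb9, but its spread covers all 3.

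In 82Q against WT a heavy chain gene fell and the light chain gene rose. H2-D1 was lower by 0.86 log2 units and B2m was higher by a smaller step, while H2-K1, H2-T23 and the 5 genes of peptide supply and loading were not called. Of the 9 genes 2 were called (22.2%), 1 higher and 1 lower. Of all tested genes 18.7% were called, 8.63% higher and 10.1% lower. The median log2 fold change of the 9 was 0.05, against 0.013 for all tested genes.

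H2-D1 (ENSMUSG00000073411, chr17:35262730-35267499, mm10) encodes a classical class I heavy chain, which presents peptides to CD8 T cells. It read 117, 108, 109.9, 112 and 116 CPM in WT-1 to WT-5 and 62.5, 68.5, 58, 65.8 and 55.8 CPM in 82Q-1 to 82Q-5. Every 82Q library lay below every WT library, and 16.6% of all tested genes had no overlap between these groups in either direction. The mean fell from 113 ± 3.87 to 62.1 ± 5.26 CPM (SD, n = 5), a log2 fold change of -0.86 ± 0.13 (1.81-fold lower, adjusted p = 4.21e-04, edgeR quasi-likelihood). Purkinje cell markers moved with it: all 10 of the list fell in 82Q, Pcp2 from 194 ± 11.9 to 95.5 ± 6.03 CPM. Their part in the H2-D1 result was not tested, and in bulk tissue fewer cells of a type and less RNA per cell cannot be told apart.

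B2m (ENSMUSG00000060802, chr2:122147686-122153083) encodes the light chain shared by all class I molecules. It read 54.9, 52.2, 51.5, 53.4 and 50.3 CPM in WT-1 to WT-5 and 62.1, 66.5, 63, 60.5 and 62 CPM in 82Q-1 to 82Q-5. Each 82Q library lay above each WT library. The mean rose from 52.5 ± 1.77 to 62.8 ± 2.25 CPM, a log2 fold change of 0.26 ± 0.06 (adjusted p = 0.00468, edgeR quasi-likelihood). A test against a change of at least 1.2-fold did not call it. Microglia, which make B2m in the brain, moved the same way: all 16 markers rose, and their sum was 173 to 194 CPM in WT and 280.4 to 305 in 82Q. Their part in the B2m result was not tested.

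H2-K1 (chr17:33996017-34000347), the other classical heavy chain gene, read 11.9 to 14.5 CPM in WT and 12.5 to 16 in 82Q and was not called. H2-T23 (chr17:36029773-36032855), a nonclassical gene whose product presents signal peptides of other class I chains to natural killer cell receptors, read 0.581 to 1.41 CPM in WT and 0.869 to 1.13 in 82Q and was not called. Tap1 (chr17:34187553-34197225) had a log2 fold change of 0.15 (adjusted p = 0.436) and Psmb8 (chr17:34197721-34201454) one of 0.29 ± 0.14 (adjusted p = 0.192), both not called by edgeR. Tap2, Tapbp and Psmb9 differed by less than 0.05 log2 units.

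In 82Q_M120A against WT, heavy chain and light chain genes changed in both directions: B2m, H2-K1, H2-T23 and Psmb8 rose and H2-D1 fell. Of the 9 genes 5 were called (55.6%), 4 higher and 1 lower. Of all tested genes 36.4% were called, 18.6% higher and 17.8% lower. The median log2 fold change of the 9 was 0.33, against 0.006 for all tested genes. Without 82Q_M120A libraries 1, 2 and 4, H2-D1 and B2m were the only ones called. In that fit 13.5% of all tested genes were called higher and 13.3% lower.

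**Figure D1:**
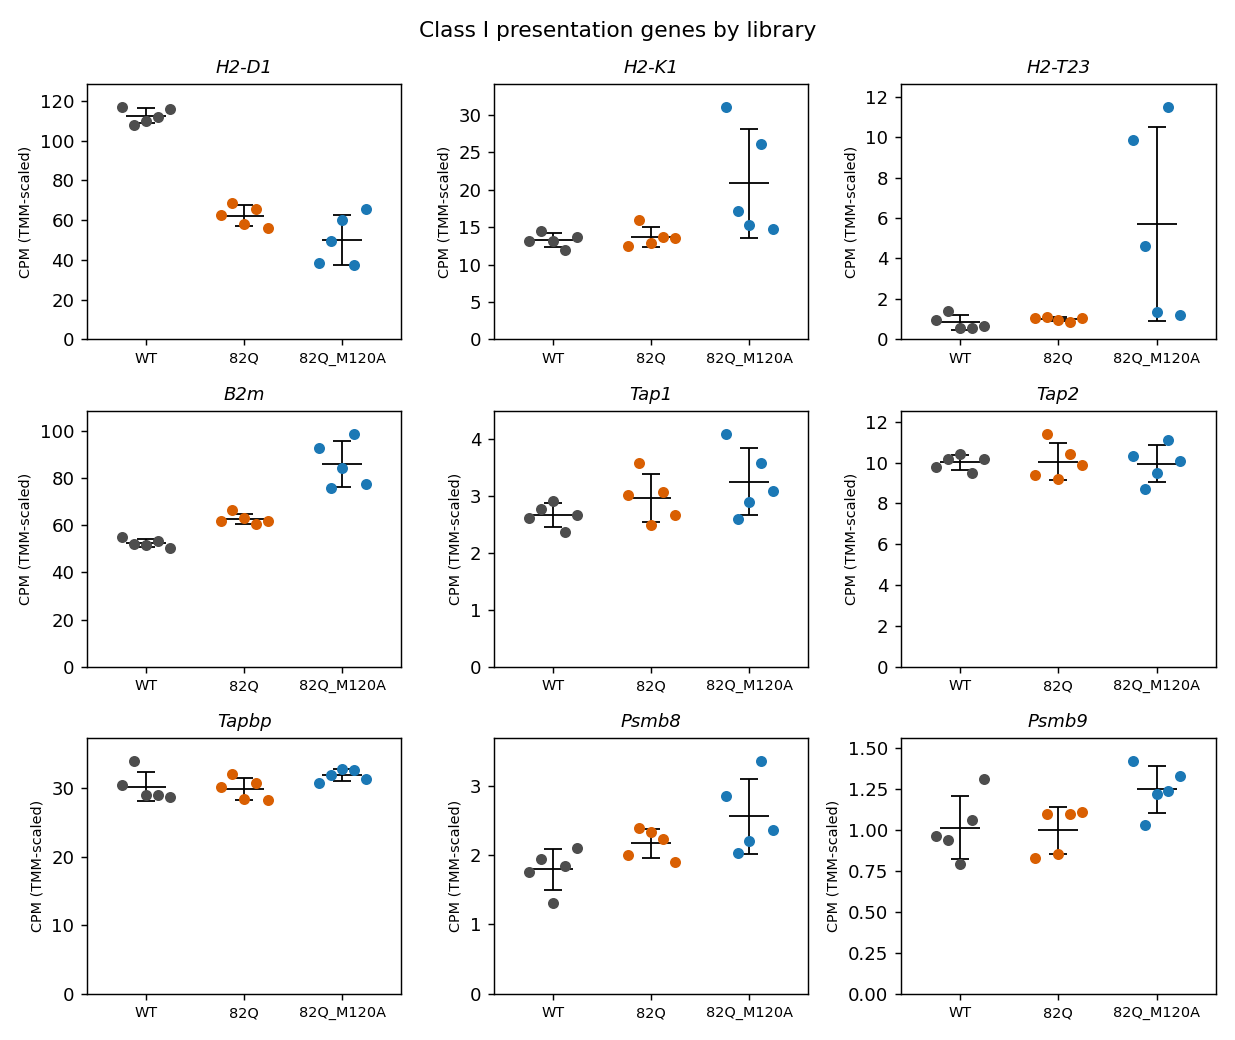
TMM-scaled CPM (vertical axes, from 0) of the 9 genes in each library (points, in column order) of the 3 groups, with group means (bars) and SD (whiskers), n = 5. H2-D1 lies lower in both 82Q groups than in WT, B2m rises from group to group, and the H2-K1 and H2-T23 points of 82Q_M120A split between 3 high and 2 low libraries.

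B2m read 93, 76.1, 84.3, 98.9 and 77.8 CPM in 82Q_M120A-1 to 82Q_M120A-5. All 5 lay above the highest of the 10 other libraries, 66.5 CPM. Of all tested genes 25.3% had no overlap between 82Q_M120A and WT. The mean of 86 ± 9.8 CPM was 0.71 ± 0.06 log2 units above WT (adjusted p = 5.02e-08, edgeR quasi-likelihood). It was also called without libraries 1, 2 and 4 (log2 fold change 0.63, adjusted p = 7.49e-08). The gene's body lies within Patl2 on the opposite strand, which reached at most 0.0468 CPM in any library. The microglia sum was 274 to 330.2 CPM in 82Q_M120A, which overlaps that of 82Q. Single markers moved in both directions. Of the 16, 14 rose and 1 fell against WT (18.6% and 17.8% of all tested genes). Against 82Q 3 rose and 2 fell (10.3% and 8.63% of all). The part of microglia in the B2m result was not tested.

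H2-D1 read 38.3, 49.4, 60.1, 37.6 and 65.6 CPM in 82Q_M120A-1 to 82Q_M120A-5. Libraries 3 and 5 fell within the range of the 82Q libraries, and libraries 1, 2 and 4 below the lowest of the 10 WT and 82Q libraries, 55.8 CPM. The mean of 50.2 ± 12.6 CPM was 1.16 ± 0.14 log2 units lower than in WT (2.24-fold, adjusted p = 1.41e-05, edgeR quasi-likelihood), and the log2 fold change without those 3 libraries was -0.84 (adjusted p = 5.21e-07).

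H2-K1 read 31.1, 17.2, 15.3, 26.1 and 14.7 CPM in 82Q_M120A-1 to 82Q_M120A-5. Again libraries 1, 2 and 4 were outside the range of the other groups, here above the highest value of 16 CPM, while libraries 3 and 5 were not. The mean of 20.9 ± 7.33 CPM against 13.3 ± 0.938 in WT gave a log2 fold change of 0.65 ± 0.18 (adjusted p = 0.0126, edgeR quasi-likelihood), and 0.17 (adjusted p = 0.163) without the 3 libraries. H2-T23 split in the same way, with 9.88, 4.6, 1.37, 11.5 and 1.18 CPM. Its log2 fold change was 2.75 ± 0.61 (5.7 ± 4.78 against 0.836 ± 0.351 CPM, adjusted p = 0.00318, edgeR quasi-likelihood), and 0.59 (adjusted p = 0.119) without the 3 libraries. The WT and 82Q_M120A ranges of H2-T23 overlapped, because WT-2 reached 1.41 CPM. The gene lies wholly within A930015D03Rik on the opposite strand, and no source used here says whether reads were counted by strand. A930015D03Rik itself read 5.39, 4.8, 3.63, 6.31 and 4.13 CPM in the 5 libraries and 3.53 to 5.19 in the other 10, and was not called.

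Of the genes of peptide cutting and transport, Psmb8 was the one called. It read 2.86, 2.03, 2.21, 3.36 and 2.37 CPM in 82Q_M120A-1 to 82Q_M120A-5 against 1.31 to 2.11 in WT. One library, 82Q_M120A-2, lay within the WT range. The mean went from 1.8 ± 0.301 to 2.57 ± 0.542 CPM, which the edgeR quasi-likelihood test called (log2 fold change 0.52 ± 0.14, adjusted p = 0.00846), and without the 3 libraries the log2 fold change was 0.36 (adjusted p = 0.0954). Tap1 was not called (0.29, adjusted p = 0.0744), with 2.6 to 4.09 CPM in 82Q_M120A and 2.36 to 2.91 in WT. Libraries 1 and 4 were its highest in 82Q_M120A. Without 82Q_M120A-2 Tap1 was called (0.35, adjusted p = 0.0283), and without libraries 1, 2 and 4 its log2 fold change was 0.17 (adjusted p = 0.377). Psmb9 (chr17:34181987-34187764) had a log2 fold change of 0.33 (adjusted p = 0.0824), which became 0.41 (adjusted p = 0.0303) without WT-5 and 0.35 (adjusted p = 0.173) without libraries 1, 2 and 4. Tap1 and Psmb9 overlap by 212 bases on opposite strands, and Psmb8 and Tap2 both overlap the antisense gene Gm20496, so a part of their reads cannot be assigned.

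Tapbp (chr17:33915899-33929292) read 28.7 to 33.9 CPM in WT and 30.7 to 32.8 in 82Q_M120A, a log2 fold change of 0.08 (adjusted p = 0.229) that was called without WT-2 (0.12, adjusted p = 0.0324). Tap2 (chr17:34203527-34216321) read 9.48 to 10.4 CPM in WT and 8.69 to 11.1 in 82Q_M120A, a log2 fold change of -0.01 (adjusted p = 0.917). Of the 50-base windows of Tapbp transcripts, 23.2% also occur in transcripts of other genes, mostly the antisense Gm19412. Tapbp also overlaps Zbtb22 by 3422 bases on the same strand, with 51 of these windows shared. Zbtb22 read 34.9 to 44 CPM over all libraries and was not called in any comparison. For H2-D1, H2-K1 and H2-T23 the shares were 12.8%, 9.63% and 14.5%, mostly with other heavy chain genes, and for B2m 0%.

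In 82Q_M120A against 82Q, the 2 groups with the Atxn1[82Q] allele, B2m, H2-T23 and H2-K1 rose and none of the 9 fell. These were 3 of the 9 genes (33.3%), and of all tested genes 18.9% were called, 10.3% higher and 8.63% lower. The median log2 fold change was 0.24 for the 9 and -0.003 for all. The log2 fold change of B2m was 0.45 ± 0.06 (adjusted p = 3.42e-05, edgeR quasi-likelihood), and 0.37 without libraries 1, 2 and 4 (adjusted p = 5.12e-05), with no overlap between the groups, a state shared by 12.1% of tested genes. H2-T23 differed by 2.49 ± 0.59 (adjusted p = 0.0102), but by 0.33 (adjusted p = 0.469) without the 3 libraries, and limma-voom did not call it (adjusted p = 0.074). H2-K1 differed by 0.61 ± 0.18 (adjusted p = 0.0327), but by 0.13 (adjusted p = 0.394) without the 3 libraries. H2-K1 also lost its call when 82Q-1, 82Q-3, 82Q-4, 82Q-5, 82Q_M120A-1 or 82Q_M120A-4 was left out (adjusted p up to 0.0775). H2-D1 was not called (-0.31 ± 0.13, adjusted p = 0.137). It was called without 82Q_M120A-5 (-0.42, adjusted p = 0.0249), and its log2 fold change was 0.02 without libraries 1, 2 and 4. Both comparisons of 82Q_M120A use the same 82Q_M120A libraries, and those of WT share the WT libraries, so the 3 sets of values are not independent of each other.

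**Figure D2:**
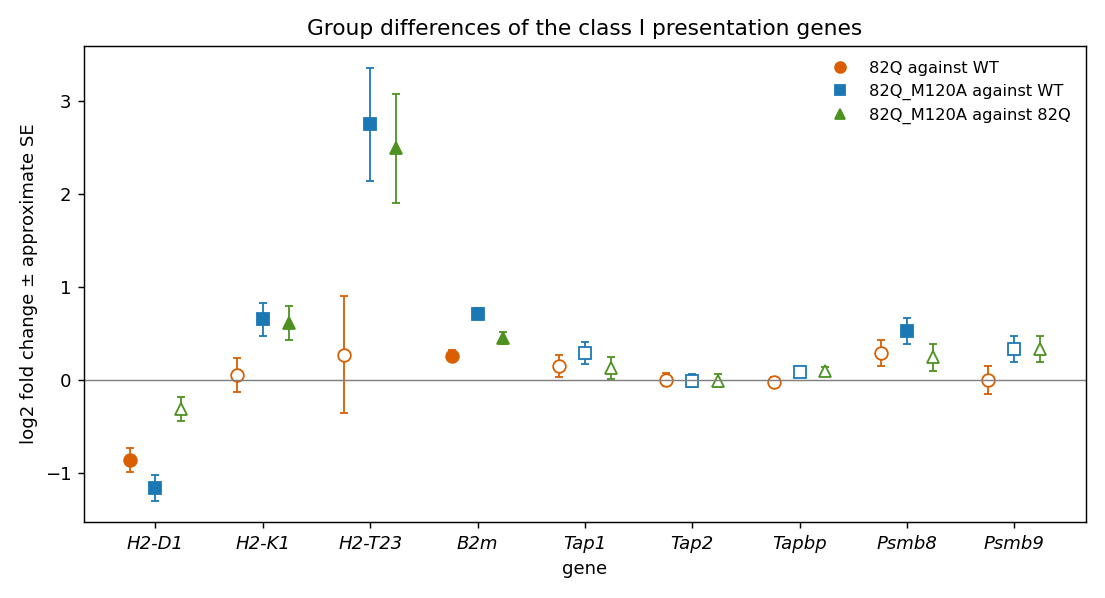
Log2 fold changes (vertical axis) of the 9 genes in the 3 group comparisons, with approximate standard errors as whiskers, filled where edgeR's quasi-likelihood test called the gene and open where it did not. H2-D1 lies at -0.86 and -1.16 against WT, H2-T23 at 2.75 and 2.49 in 82Q_M120A with the widest errors, and Tap2 and Tapbp near 0 throughout.

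The spread between the 82Q_M120A libraries was itself uneven among the 9 genes. For H2-D1, H2-K1 and H2-T23 the SD of log2 CPM in 82Q_M120A was 3.92, 4.02 and 3.91 times the pooled SD of WT and 82Q, and for B2m 3.27 times. It was 1.58 times for Tap1, 1.41 for Psmb8, 1.39 for Tap2, 0.72 for Psmb9 and 0.45 for Tapbp. For the median of all tested genes it was 1.06. The wide spread of the heavy chain genes thus did not extend to Tapbp or Psmb9, which lie in the same complex. B2m differed from the heavy chain genes in that all of its 82Q_M120A values, not only libraries 1, 2 and 4, were outside the range of the other 10.

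The 8 genes on chromosome 17 span 2.11 Mb (chr17:33915899-36029773, lower gene coordinates), and 102 other tested genes start within that interval. The SD ratio of those genes had a median of 1.52 and was over 2 for 39.2% of them. Within 5 Mb on either side the median was 1.47 and 24.1% were over 2, in the rest of the chromosome 1.15 and 18.6%, and over all tested genes 11.9% were over 2. The share of interval genes called was below that of all tested genes in each comparison: 82Q differed from WT at 16 genes (15.7%), 82Q_M120A from WT at 29 (28.4%) and 82Q_M120A from 82Q at 17 (16.7%).

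**Figure D3:**
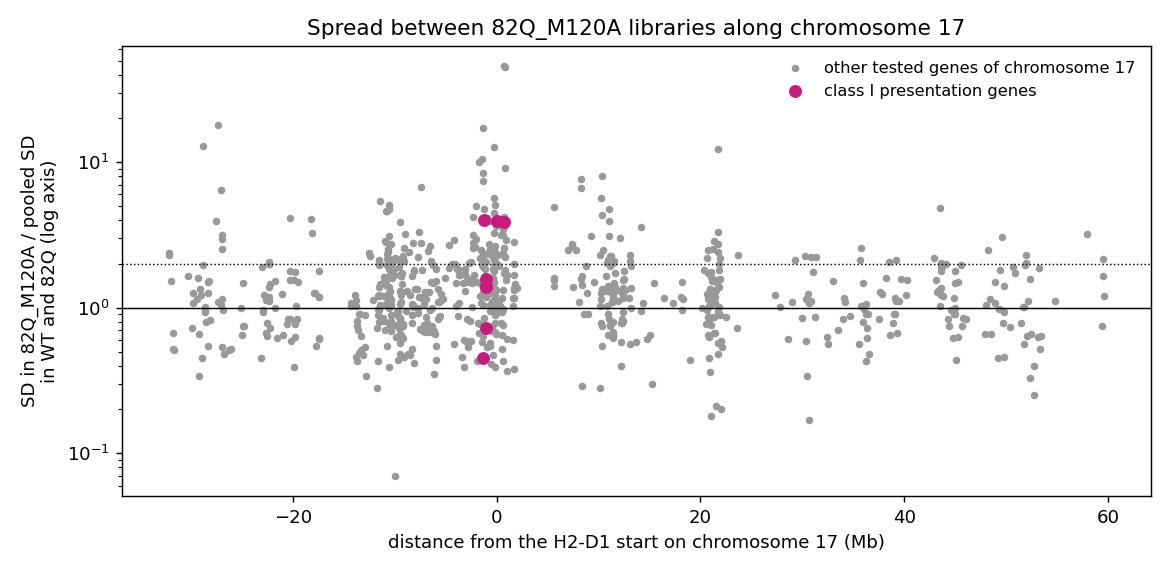
Ratio of the SD of log2 CPM in 82Q_M120A to the pooled SD in WT and 82Q (vertical log axis, lines at 1 and 2) for each tested gene of chromosome 17, by distance in Mb from the H2-D1 start (horizontal axis). H2-D1, H2-K1 and H2-T23 lie near a ratio of 4, Psmb9 and Tapbp below 1, and 39.2% of the other interval genes lie above 2.

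Several interval genes with no known part in antigen presentation split between the 82Q_M120A libraries as the heavy chains did. Rps18, a ribosomal protein gene, read 133, 88.1, 22.1, 76.6 and 22.6 CPM in 82Q_M120A-1 to 82Q_M120A-5 and 19.3 to 23.9 in the other 10 libraries. Libraries 1, 2 and 4 were again the ones outside that range, and the log2 fold change against WT was 1.59 ± 0.42 (adjusted p = 0.0106, edgeR quasi-likelihood), and -0.02 without them (adjusted p = 0.827). The same 3 libraries alone were above the range of the other 10 at Rgl2, Ring1 and Hspa1l and below it at Vps52 and D17H6S56E-5. Vars and Ddah2, also among the widest in spread, did not split this way. Vars read 76.1, 99.5, 117, 105 and 107 CPM against 90.1 to 109.7 in the other 10. Ddah2 read 32.7, 50.4, 56.1, 36.1 and 49.8 CPM against 45.1 to 51.6. Rgl2, Ring1, Vps52, D17H6S56E-5, Vars and Ddah2 were chosen after their values were seen. The class II gene H2-Eb1, a chain of the molecule that presents to CD4 T cells, read 2.43, 1.36, 0.378, 1.18 and 0.208 CPM against 0.167 to 0.389 in the other 10, and was called against WT only with the 3 libraries (log2 fold change 2.21 ± 0.54, and 0.29 without them). Its SD ratio was 4.13. For other class II genes of the interval it was 2.34 (H2-DMa), 2.07 (H2-Ob), 1.66 (H2-DMb2), 1.28 (H2-DMb1), 1.19 (H2-Ab1) and 0.54 (H2-Aa). Of 9 class II presentation genes tested, 2 rose in 82Q_M120A against WT, where 18.6% of all tested genes were called higher. Against 82Q 1 rose and 3 fell (10.3% and 8.63% of all).

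Other class I heavy chain genes showed the split too. Of 23 such genes listed, 7 were tested. None was called in 82Q against WT, where 18.7% of all tested genes were called. In 82Q_M120A against WT 3 rose (H2-T24, H2-Q4 and H2-M3), where 18.6% of all tested genes were called higher. In 82Q_M120A against 82Q 3 rose (H2-Q1, H2-T24 and H2-Q4), where 10.3% of all were called higher. Without libraries 1, 2 and 4, the filter kept 8 of these genes, of which H2-Q4 rose (0.48, adjusted p = 0.0262) and H2-Bl fell against WT. Of all tested genes 13.5% then rose and 13.3% fell against WT. None of the 8 was called against 82Q by edgeR. H2-T24 read 10.3, 6.31, 2.67, 13.7 and 2.48 CPM in the 82Q_M120A libraries against 1.44 to 3.08 in the other 10, with a log2 fold change against WT of 1.67 ± 0.42 (adjusted p = 0.00686, edgeR quasi-likelihood), and 0.21 without the 3 libraries (adjusted p = 0.393). H2-T10 went the other way, at 1.58, 14.3, 23.7, 1.68 and 23.7 CPM against 25 to 27.3 in the other 10, and was not called against either group. H2-K2, too low in most libraries to be tested and chosen after its values were seen, read 12.5, 5.52, 0.112, 6.2 and 0.0937 CPM against at most 0.0841. Library 2 lay between libraries 1 and 4 on one side and 3 and 5 on the other at H2-D1, H2-K1, H2-T23, H2-T24 and H2-T10, though not at Rps18 or H2-Eb1. H2-Q4 departed from this pattern: it was above the range of the other 10 in libraries 1, 3, 4 and 5, and 82Q_M120A-2 lay within it. The share of 50-base windows that also occur in transcripts of other genes was 50.4% for H2-T10, 36.4% for H2-Q4 and 3.17% for H2-T24. Reads of H2-T10 and H2-Q4 are thus less surely assigned.

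**Figure D4:**
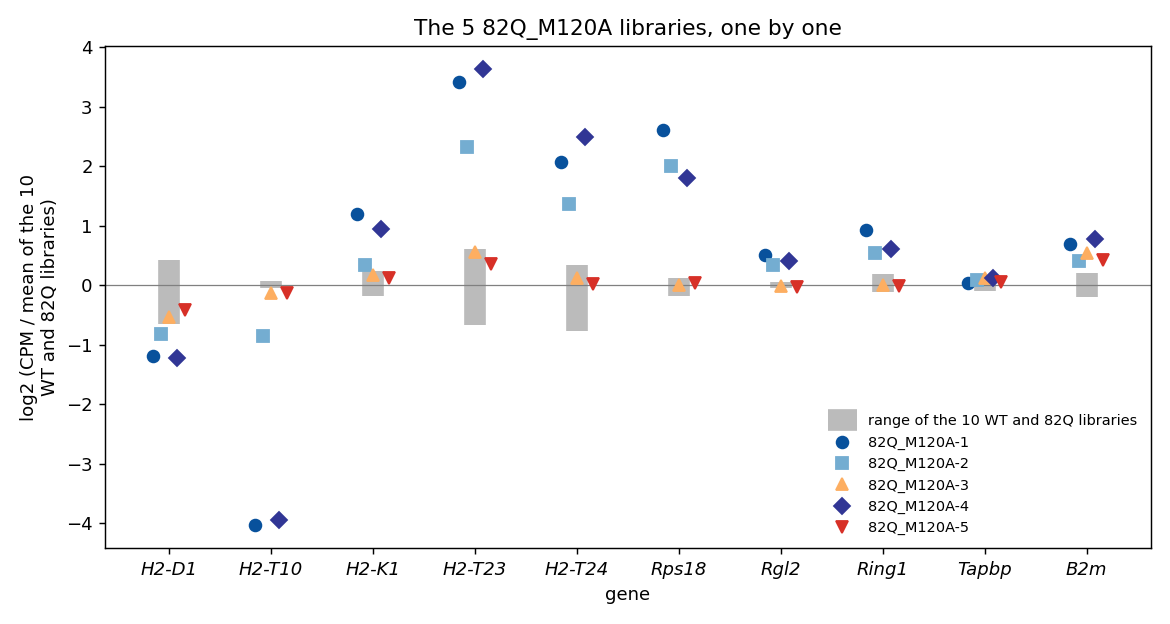
Log2 ratio of CPM in each 82Q_M120A library (points) to the mean of the 10 WT and 82Q libraries (vertical axis), with the range of those 10 as grey bars, for 3 class I heavy chain genes of the 9, other genes of the H2 complex region, Tapbp and B2m. Libraries 1, 2 and 4 leave the grey bars at H2-D1, H2-K1, H2-T23, H2-T24, Rps18, Rgl2 and Ring1 while 3 and 5 stay close to them, and all 5 lie above the bar at B2m.

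The labels give the mixed strain for all 5 of these libraries alike and no H2 haplotype for any library. The reads were placed on the mm10 assembly, which is C57BL/6J sequence, and how many FVB/nJ reads of these polymorphic genes were lost or placed on a related gene is unknown. At the 8 genes on chromosome 17, reads of 2 haplotypes may match that sequence differently. In comparisons with or within the mixed-strain group, such a difference and a difference in RNA cannot be told apart in these counts. The labels give FVB/nJ for all libraries of the other groups, so no strain difference is stated between those. The part of haplotype in the split between libraries was not tested.

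Some regulators of class I genes rose in 82Q_M120A against WT, 7 of 16, where 18.6% of all tested genes were called higher. In 82Q 2 of the 16 rose against WT (8.63% of all tested genes), and 3 rose in 82Q_M120A against 82Q (10.3% of all), with none lower in any comparison. Without libraries 1, 2 and 4 the counts for 82Q_M120A were 6 against WT (13.5% of all) and 3 against 82Q (6.89% of all). Nlrc5, the transactivator of class I genes, read 1.49, 0.544, 1.19, 1.25 and 0.864 CPM in the 82Q_M120A libraries against 0.45 to 0.717 in WT, so that library 2 lay within the WT range. Its log2 fold change was 0.80 ± 0.23 (adjusted p = 0.0117, edgeR quasi-likelihood), and 0.74 without the 3 libraries (adjusted p = 0.0243). Stat2, which relays interferon signals, rose from 106 ± 5.2 to 129 ± 7.42 CPM. Irf8, a factor of microglia and other myeloid cells, rose in both 82Q groups, from 1.96 ± 0.195 CPM in WT to 3.07 ± 0.344 in 82Q and 3.3 ± 0.295 in 82Q_M120A. Rela and Nfkb1, which encode NF-kappaB subunits, were not called in any comparison, nor was Rfx5, whose product binds class I and class II promoters.

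Of 27 interferon-stimulated genes 20 rose in 82Q_M120A against WT, with a median log2 fold change of 0.63 over the list, where 18.6% of all tested genes were called higher. In 82Q_M120A against 82Q 10 rose (median 0.43, 10.3% of all tested genes), and in 82Q against WT 2 rose (median 0.21), near the 8.63% of all tested genes. None fell in any comparison. Without libraries 1, 2 and 4 the counts for 82Q_M120A were 15 against WT, where 13.5% of all tested genes were then called higher, and 4 against 82Q (6.89% of all). Ifit3, an antiviral effector, went from 5.06 ± 1.04 CPM in WT to 6.76 ± 1.01 in 82Q and 16.3 ± 2.53 in 82Q_M120A (log2 fold change against WT 1.70 ± 0.14, adjusted p = 9.90e-08, edgeR quasi-likelihood). Ifih1, a sensor of double-stranded RNA, rose from 2.27 ± 0.328 CPM in WT to 4.75 ± 0.737 in 82Q_M120A. Among 8 tested genes of interferon receptors and their kinases none rose against WT, and the receptor gene Ifngr2 fell in both, by 0.38 log2 units in 82Q and by 0.27 in 82Q_M120A.

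Other genes of the proteasome and of peptide loading were examined beside the 9. The third inducible subunit Psmb10 and the activator genes Psme1, Psme2 and Psme3 were not called in any comparison, with Psmb10 at 19.3 ± 1.04, 20 ± 1.11 and 18.5 ± 0.894 CPM in WT, 82Q and 82Q_M120A. Of the constitutive counterparts, Psmb6 and Psmb7 fell in 82Q_M120A against WT, Psmb7 from 125 ± 3.41 to 113 ± 6.07 CPM, and Psmb5 was not called. Without the 3 libraries Psmb6 was not called (adjusted p = 0.0792, edgeR quasi-likelihood). Of 9 genes of peptide loading and trimming, 2 rose and 5 fell in 82Q_M120A against WT (18.6% and 17.8% of all tested genes). Without the 3 libraries 1 rose and 5 fell (13.5% and 13.3% of all). Tapbpl, a tapasin relative that edits the bound peptide, rose by 0.31 ± 0.06 log2 units (6.66 ± 0.308 to 8.25 ± 0.535 CPM, edgeR adjusted p = 7.39e-04), and the loading cofactor Pdia3 fell from 229 ± 12.8 to 196 ± 17.2 CPM. Sec61a1, a channel subunit of the endoplasmic reticulum, fell from 109 ± 3.21 CPM to 81.2 ± 1.08 in 82Q and 81.5 ± 2.78 in 82Q_M120A.

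Cells that read class I molecules were barely represented. The 13 genes of T and natural killer cells in the table summed to 0.667 to 1.17 CPM in the 15 libraries, and Cd8a, the coreceptor for class I, reached at most 6 counts in a library. Lck and Cd4, the only 2 that could be tested, were not called. Another list held 5 genes for class I and related receptors of myeloid and neuronal cells and their signalling partners. In each 82Q group 2 of them rose against WT, where 8.63% (82Q) and 18.6% (82Q_M120A) of all tested genes were called higher. Whether the Lilrb4a product binds class I molecules was not tested. Lilrb4a rose from 0.393 ± 0.0677 CPM in WT to 1.02 ± 0.159 in 82Q and 0.981 ± 0.12 in 82Q_M120A, and Ptpn6 from 1.72 ± 0.234 to 2.69 ± 0.257 and 2.87 ± 0.356. Endothelial markers, from cells that also carry class I, summed to 404 to 432 CPM in WT, 426 to 460.0 in 82Q and 416 to 479.6 in 82Q_M120A. Choroid plexus markers differed widely between libraries within each group (37.7 to 2627 CPM in WT, 43.3 to 2817 in 82Q and 23 to 2074 in 82Q_M120A), and none was called.

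Across the 15 libraries, the 9 genes did not all vary together. Pearson's r of log2 CPM was 0.94 for H2-K1 with H2-T23 and -0.79 for H2-D1 with H2-T23, and 0.87 and -0.88 after the group means were subtracted. For H2-D1 with B2m r was -0.89, and -0.64 with the group means subtracted. Tap1 and Tap2 had 0.68 and 0.84. The genes most like the mean of the 9 over all 15 libraries were H2-Q4 (r = 0.93), Rtp4 (0.91), Oasl2 (0.89), Irgm2 (0.88) and Ifit1 (0.88). With group means subtracted they were H2-Q4 (0.88), Fam196a (0.88), Rtp4 (0.85), Bend7 (0.82) and Ifitm3 (0.82). These values describe 15 libraries that share groups and, within 82Q_M120A, the split described above.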

How the data were processed

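The authors deposited read counts per gene symbol for 15 cerebellar RNA libraries, which are whole numbers without normalization. Per the submitters' processing notes the tools were CASAVA 1.8, HISAT2 2.0.1, featureCounts and Subread, R 3.3.3 and DESeq2 1.14.1, with build mm10. No source used here gives the annotation, the strand setting or the treatment of multi-mapping reads. Columns name the group but match no single sample, so they were used as replicates of a group. Counts were fitted with edgeR 4.0.16 in R 4.3.3 (TMM, filterByExpr, robust quasi-likelihood, all 15 libraries, group as the only factor, two-sided) and adjusted over 16808 genes. Log2 CPM used a prior count of 2. Replicate libraries differed by more than counting error (chi-square per degree of freedom 6.84 to 69 over 30 pairs), and the common biological coefficient of variation was 0.105. On simulated 82Q against WT counts (16720 genes), the fit recovered 56%, 88%, 100% and 98% of 50 genes each changed 1.2-, 1.5-, 2- and 4-fold, with 3 false calls. Positions are from GENCODE M21 and promoters from RefSeq. The 9 genes and all lists were chosen with earlier results of these data known. All 9 were named in every comparison. Of each other list, up to 4 called genes were named by adjusted p, or the 2 of highest level where none was called, and of the interval the 4 called genes with the largest fold change at a mean of at least 1 CPM. One gene these rules name is not reported here. Genes named outside these rules were chosen after their values were seen. These are H2-K2, H2-Bl, H2-Ab1, H2-DMa, H2-DMb1, Zbtb22, Nlrc5, Psmb5, Psme1, Psme2, Rela, Nfkb1, Rfx5, Cd8a, A930015D03Rik, Patl2 and those marked in the text. Alternatives were other scalings, filters, thresholds and tools (DESeq2 1.42.0, limma-voom from limma 3.58.1), a fit of only the groups compared, and leaving out each library.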

Additional observations from a re-analysis of the deposited data

How the results depend on the processing

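No paired analysis was possible because the columns carry no replicate number that a label holds. Of 666 values of single genes under alternatives, 610 kept direction and call, 20 lost and 7 gained a call, and 29 changed sign. Changes of sign were confined to values that were not called. In 82Q against WT these were Psmb9 at 0.00 (no low-count filter), 0.01 (mean of at least 1 CPM), 0.05 (library size only), 0.01 (DESeq2) and 0.02 (limma-voom), Tapbp at 0.03 (library size only) and Tap2 at 0.00 (only the 2 groups). In 82Q_M120A against WT it was Tap2 at 0.04 (library size only), and in 82Q_M120A against 82Q it was H2-D1 at 0.02 without 82Q_M120A libraries 1, 2 and 4. With 1 library left out, Psmb9 ran from -0.08 to 0.09, Tapbp from -0.04 to 0.03, Tap2 from -0.05 to 0.03 and H2-K1 from -0.02 to 0.08 in 82Q against WT. Tap2 ran from -0.05 to 0.03 in 82Q_M120A against WT and from -0.06 to 0.03 against 82Q.

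Of the 9 genes, a test against a 1.2-fold change called 1 in 82Q against WT and 3 in 82Q_M120A against WT. Library size only, which raised the share of higher calls from 46.2% to 73% in 82Q against WT and from 51.1% to 68.8% in 82Q_M120A against WT, called 7 in the latter, Tap1 (adjusted p = 0.0391) and Psmb9 (0.0453) added; limma-voom added Psmb9 (0.049). A fit of the 2 groups alone left H2-K1 uncalled in 82Q_M120A against 82Q (0.0967). An adjusted p under 0.01 left 1 called in 82Q_M120A against 82Q. Without 82Q_M120A libraries 1, 2 and 4, 2 were called against WT and 1 against 82Q. Of the interval genes, an adjusted p under 0.01 called 7, 19 and 2 in the 3 comparisons (82Q against WT, 82Q_M120A against WT, 82Q_M120A against 82Q), the 1.2-fold test 5, 11 and 0, a fit of the 2 groups alone 6 in the third, and the fit without the 3 libraries 19 against WT and 2 against 82Q. With 1 library left out, interval calls were 11 to 20, 25 to 37 and 7 to 21, lowest in the third without 82Q_M120A-1. The causes of these shifts were not tested, other than that fewer libraries or a stricter threshold enter by construction. Depth limits H2-T23 and Psmb9, which had as few as 25 and 49 counts in a library.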
